A study of Homo sapiens with 70 samples.

Results

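The RNA of 8 genes was followed, named with earlier results of these libraries in view. CENPT, THAP11, UBXN8 and FBXL19-AS1 were selected on their measured change from DMSO to DOX, being genes that moved in every guide, and CENPW, CENPC, CENPH and CENPK because their proteins work with that of CENPT. They are 8 of the 78932 genes in the table. DOX here is doxycycline, and DMSO is the solvent control. The cells were MIA PaCa-2, an established pancreatic ductal adenocarcinoma line, in a form resistant to sotorasib, a covalent inhibitor of mutant K-Ras. All of them, the controls included, carry inducible dCas9-KRAB, a Cas9 that cannot cut, fused to a repressor domain that silences the gene a guide RNA points to. The guides were sgZBTB11 #1 and sgZBTB11 #2, named for the zinc finger gene ZBTB11, and sgNS, whose name holds no gene and which served as the comparison line. Each guide was taken with DMSO and with DOX at 5 hr and at days 1, 3 and 5, which gave 24 groups and 70 libraries of poly(A) RNA. Of the groups 22 had 3 libraries and 2 had 2 (the DMSO groups of sgNS on day 1 and of sgZBTB11 #1 on day 5). The labels used here do not say whether a line is a clone or a pool, what medium or dose was used, or whether replicate libraries were grown apart, and p-values therefore measure only the spread between these libraries.

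CENP-T is part of the constitutive centromere-associated network (CCAN), the protein layer that sits on centromeric chromatin through the cell cycle. It pairs with CENP-W through a histone fold, and its long N-terminal tail recruits the NDC80 complex, which holds microtubules in mitosis. CENP-C binds nucleosomes that contain CENP-A, and CENP-H and CENP-K belong to a further CCAN complex that links both arms. THAP11 is a zinc finger transcription factor that works with the cofactor HCFC1 and shares a promoter motif with ZNF143. UBXN8 is a membrane protein of the endoplasmic reticulum whose UBX domain binds the ATPase p97, and FBXL19-AS1 is a long noncoding RNA transcribed opposite to FBXL19, an F-box gene.

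CENPT and THAP11 lie in each other. In RefSeq on GRCh38.p14, CENPT (ENSG00000102901.13) covers chromosome 16 from 67828157 to 67847693 on the minus strand, and THAP11 (ENSG00000168286.3) covers 67842320 to 67844195 on the plus strand, wholly within it. The first bases of CENPT also lie within NUTF2 (67846933 to 67872567, plus strand), a nuclear import factor gene. FBXL19-AS1 (ENSG00000260852.2, chromosome 16, 30919319 to 30923269, minus strand) overlaps the start of FBXL19 (30922851 to 30948783). UBXN8 (ENSG00000104691.16) lies on chromosome 8, 30729135 to 30767006. Whether reads were counted by strand is not given in the sources used here, so reads of CENPT, THAP11 and NUTF2, or of FBXL19-AS1 and FBXL19, cannot be told apart where these genes overlap. GENCODE 29, whose transcripts need not be those used to count the reads here, lists 35 CENPT transcripts, 8 of them protein coding. The first base of 22 lies past THAP11 in the direction in which CENPT is read, 6 begin within the THAP11 interval, and 7 begin before it, between 67846823 and 67847811.

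**Figure D1:**
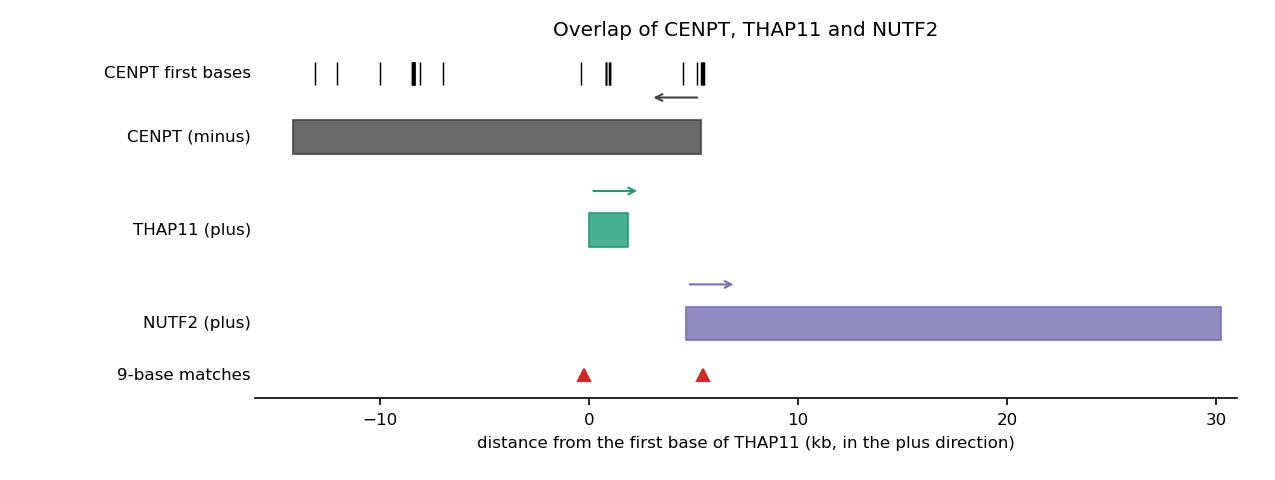
Map of the CENPT locus, with the x axis in kb from the first base of THAP11 in the plus direction. Bars are the RefSeq spans of CENPT, THAP11 and NUTF2 with an arrow for the direction of transcription, ticks are first bases of the 35 GENCODE 29 CENPT transcripts, and triangles mark the matches to 9-base motifs in the CENPT and THAP11 promoters. THAP11 lies inside CENPT, and the farthest CENPT starts lie inside NUTF2.

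The 250 bases before the start are shown for 3 of the genes chosen for their DOX change, because these windows hold the motif matches described here. They were read from the RefSeq promoter table of GRCh38.p14, which holds 6 of the 8 genes (not UBXN8 or CENPH), and the matches are in capitals. The windows are chr16:67847694-67847943 on the minus strand, chr16:67842070-67842319 on the plus strand and chr16:30923270-30923519 on the minus strand, in the order printed. The first lies within NUTF2, the second within CENPT and the third within FBXL19.
CENPT: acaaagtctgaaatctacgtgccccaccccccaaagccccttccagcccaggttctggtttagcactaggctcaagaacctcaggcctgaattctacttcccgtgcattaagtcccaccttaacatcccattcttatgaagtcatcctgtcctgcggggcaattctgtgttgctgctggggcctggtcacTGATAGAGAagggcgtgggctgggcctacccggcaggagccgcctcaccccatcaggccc
THAP11: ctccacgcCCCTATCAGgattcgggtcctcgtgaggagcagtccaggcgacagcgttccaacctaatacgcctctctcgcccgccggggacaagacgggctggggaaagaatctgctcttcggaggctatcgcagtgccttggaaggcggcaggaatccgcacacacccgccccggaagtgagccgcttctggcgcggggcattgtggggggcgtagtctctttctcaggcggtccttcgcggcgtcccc
FBXL19-AS1: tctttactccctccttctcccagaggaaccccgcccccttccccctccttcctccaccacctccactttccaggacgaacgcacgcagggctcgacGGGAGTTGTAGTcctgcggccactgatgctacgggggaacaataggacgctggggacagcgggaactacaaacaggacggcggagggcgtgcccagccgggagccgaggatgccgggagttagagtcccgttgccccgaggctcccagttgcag

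The capitals in CENPT are TGATAGAGA, from 60 to 52 bases before the start (67847745 to 67847753), and those in THAP11 are CCCTATCAG, from 242 to 234 bases before it (67842078 to 67842086). These letters were noticed in the windows first and then searched for on both strands of all 35116 promoter windows of 300 bases, which include 50 bases after the start. TGATAGAGA was in 53 of them (0.151%) and CCCTATCAG in 46 (0.131%), and 5658 bases separate the 2 matches at this locus. Both runs of letters also occur in the bacterial tet operator, the element on which doxycycline-inducible systems rest. No binding was measured in these libraries, so the matches are a description. Among genes with TGATAGAGA in the window, 16 were tested at day 1, and 1 was higher and 1 lower with DOX in sgNS, 1 and 2 in sgZBTB11 #1, and 2 and 3 in sgZBTB11 #2. Among genes with CCCTATCAG, 22 were tested, and 1, 1 and 2 were lower in the same order. CENPT and THAP11 are counted among them. Over all genes 2.19%, 4.84% and 7.88% were called at day 1. At 5 hr, where 40.9%, 32.8% and 17% were, 5 of 17 genes with TGATAGAGA were higher and 3 lower in sgNS, 7 and 2 in sgZBTB11 #1, and 2 and 2 in sgZBTB11 #2. With CCCTATCAG it was 3 and 5, 3 and 4, and 1 and 3 of 21. In FBXL19-AS1 the capitals are a match on the opposite strand to ACTACANNNCCC, the core of the motif known for THAP11 and ZNF143, from 154 to 143 bases before the start. It was in 752 windows (2.14%), and of the 6 genes in the table only FBXL19-AS1 held it.

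Library totals ran from 12068842 to 20627642 expected counts. As background to the guides, ZBTB11 went with DOX from 49.1 ± 1.3 to 26.3 ± 0.47 CPM (counts scaled to the library total) in sgZBTB11 #2 at day 5 and from 52.7 ± 4.2 to 47.4 ± 3.1 in sgNS (SD, n = 3 each). In sgZBTB11 #1 it went from 45.1 ± 2.3 (SD, n = 2) to 33.8 ± 1.8 (SD, n = 3). It was called lower in all 3 lines at that time, by 0.90 in sgZBTB11 #2, 0.42 in sgZBTB11 #1 and 0.15 in sgNS on the log2 scale (adjusted p = 0.032 in sgNS, edgeR). At 5 hr it was higher in sgNS (0.17), lower in sgZBTB11 #2 (-0.17) and not called in sgZBTB11 #1 (-0.0035). Of the markers of MIA PaCa-2, KRT8, KRT18 and VIM were at 333 to 4319 TPM (transcripts scaled for length and depth) and KRT19 at 44.6 to 139, while KRT7, EPCAM and CDH1 stayed at 0.92 or below. Markers of leukocytes (PTPRC), endothelium (PECAM1), fibroblasts (COL1A1, DCN), acinar cells (PRSS1) and beta cells (INS) were at 1.3 or below in all 70 libraries. All 8 genes passed the filter on low counts at every time, with at least 75 expected counts in every library. In bulk RNA, fewer cells with a transcript and less of it per cell cannot be told apart.

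CENPT was higher with DOX than with DMSO in every guide at every time, from 5 hr on. Levels here are CPM scaled by TMM, edgeR's factor for library composition. At 5 hr the sgNS libraries stood at 129.8, 131 and 142 with DMSO and at 242, 252 and 241 with DOX. In sgZBTB11 #1 they were at 137, 141 and 150.2 and went to 334, 348 and 361. In sgZBTB11 #2 they were at 102, 98.5 and 104 and went to 381, 394 and 399. The line that was lowest with DMSO was thus highest with DOX, and no DOX library came near a DMSO library of its guide. At day 1 CENPT in sgNS was at 90.7 and 98.8 with DMSO and at 238, 250.1 and 263 with DOX. In sgZBTB11 #1 the DMSO libraries were at 93.7, 90.1 and 96.9 and the DOX libraries at 315, 324 and 311. For sgZBTB11 #2 they were at 102, 98.6 and 108 and at 313, 303 and 304. On this scale the 3 DMSO groups were alike, and with DOX both ZBTB11 guides lay above sgNS. Over the alternative settings, the log2 difference from sgNS with DMSO ran from 0.08 to 0.32 in sgZBTB11 #2. In sgZBTB11 #1 it ran from -0.03 to 0.15, so the likeness depends on the setting.

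At days 3 and 5 the gap narrowed from both sides. Day 3 levels in sgNS were 137, 123 and 122 with DMSO against 197, 191 and 198 with DOX. In sgZBTB11 #1 they were 145, 158 and 146 against 262, 262 and 243. In sgZBTB11 #2 they were 127, 131 and 134 against 223, 200.04 and 217. The groups still did not overlap. By day 5 the sgNS libraries were at 133, 138 and 129 with DMSO and at 171, 181 and 166 with DOX. Those of sgZBTB11 #1 were at 145 and 143 and at 205, 207 and 214, and those of sgZBTB11 #2 at 139.7, 137 and 135 and at 193, 196 and 184. Again every DOX library was above every DMSO library of its guide.

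**Figure D2:**
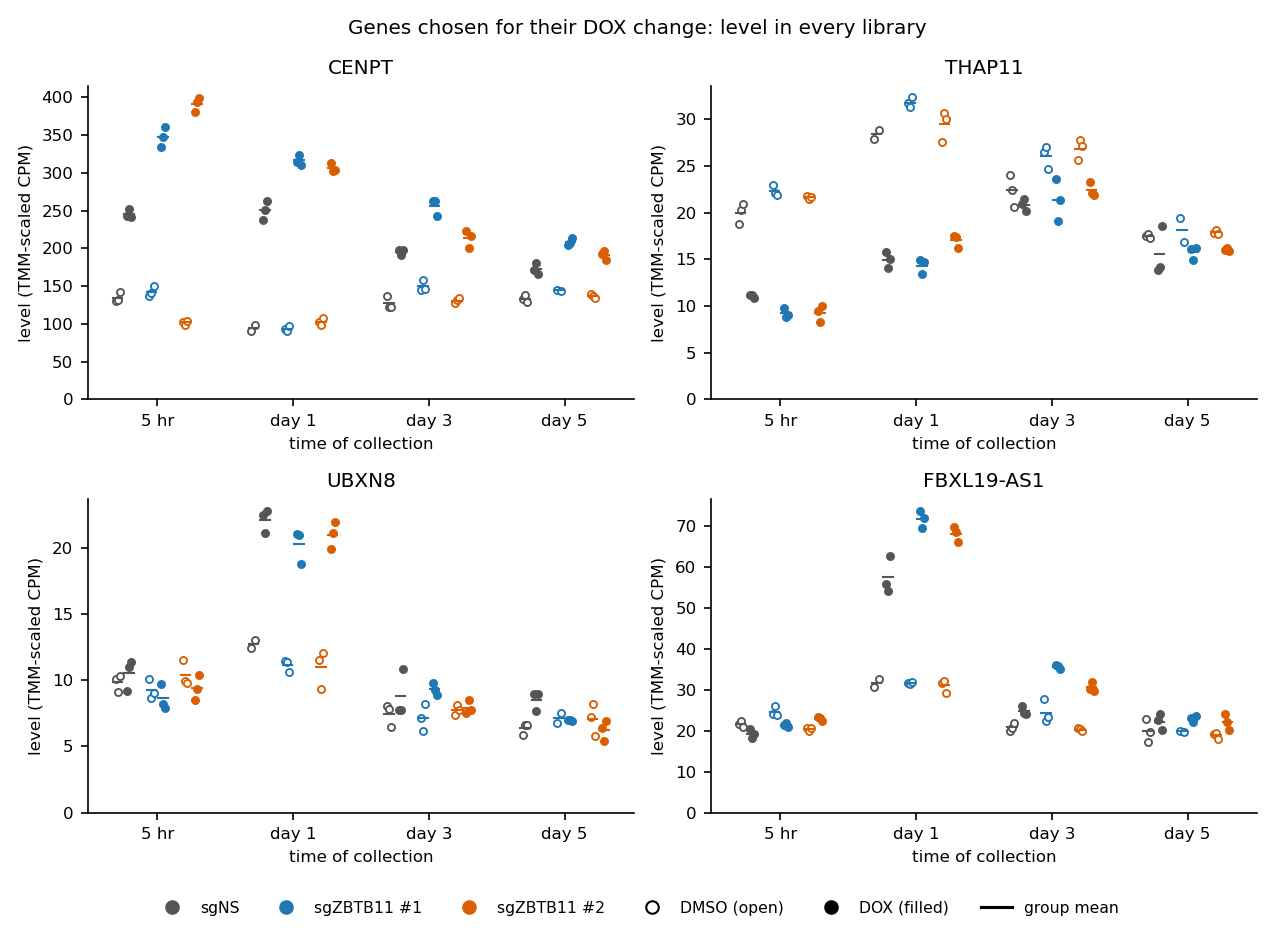
Level in TMM-scaled CPM (y axis) of CENPT, THAP11, UBXN8 and FBXL19-AS1 in each library by time of collection (x axis) and guide (colour), open for DMSO and filled for DOX, with a bar for the group mean. CENPT is above its DMSO libraries in all 12 comparisons, THAP11 is below in 10 of 12, and UBXN8 and FBXL19-AS1 stand highest with DOX at day 1.

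As a description of the contrast that chose it, the log2 change of CENPT in edgeR was 0.87 (SE 0.037), 1.28 (0.036) and 1.94 (0.037) at 5 hr in sgNS, sgZBTB11 #1 and sgZBTB11 #2. At day 1 it was 1.40 (0.044), 1.76 (0.037) and 1.58 (0.037), at day 3 it was 0.61 (0.046), 0.77 (0.045) and 0.70 (0.044), and at day 5 it was 0.38 (0.033), 0.53 (0.036) and 0.48 (0.032). By size, among 11203 to 11205 genes with a mean of at least 5 CPM, these ranked 24, 5 and 2 at 5 hr and 4, 2 and 3 at day 1. The ranks were 13, 7 and 8 at day 3 and 417, 36 and 110 at day 5. The groups did not overlap, with DOX higher, in 12 of 12 comparisons. The share of all tested genes for which DOX was higher without overlap was 25%, 22.9% and 16.2% at 5 hr in that order of guides, then 14.5%, 11.8% and 10.7% on day 1, 8.79%, 6.61% and 7.79% by day 3, and finally 15.3%, 13.2% and 11% on day 5. CENPT and SLC25A36, a mitochondrial carrier, were the 2 of 14972 genes tested at all times that were called higher (adjusted p under 0.05) in all 12 comparisons, and 0 were called lower in all 12. SLC25A36 was named after its values were seen. At 5 hr 7 genes were called higher in all 3 guides (0.0448% of those tested), at day 1 31 (0.19%), at day 3 5 (0.03%) and at day 5 2 (0.0119%).

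Whether the change of CENPT differed between guides was not part of the choice and was tested in the same fit, with sgNS as reference. The net change is the mean DOX change of both ZBTB11 guides minus that of sgNS. It was 0.74 on the log2 scale at 5 hr (SE 0.045, adjusted p = 9.6e-15, edgeR quasi-likelihood test with Benjamini-Hochberg adjustment), where 30% of genes were called, and 0.26 at day 1 (SE 0.052, adjusted p = 0.019), where 0.0737% were. At day 3 it was 0.12 (SE 0.056, adjusted p = 0.43; 0.493% called), and at day 5 0.13 (SE 0.041, adjusted p = 0.019; 19.2% called). In limma on log2 of TPM + 1 the values of days 3 and 5 were larger, at 0.28 (adjusted p = 0.12) and 0.32 (adjusted p = 0.00059). The excess over sgNS thus passed the threshold at 5 hr, day 1 and day 5. At 5 hr and day 5 many other genes were called too, and the day 1 and day 5 calls rested on single libraries. Without sgNS DMSO replicate 2 the day 1 value was 0.20 (adjusted p = 0.53), and it missed the threshold also without sgNS DOX replicate 1 (0.079) or 2 (0.083). At day 5 the call was lost when sgNS DOX replicate 3 (0.11), sgNS DMSO replicate 2 (0.079) or replicate 2 of sgZBTB11 #1 with DMSO (0.063) was left out. Between the ZBTB11 guides, the change was larger in sgZBTB11 #2 by 0.66 at 5 hr (SE 0.052, adjusted p = 8.2e-13), a time at which 35.1% of genes differed between them. The mean DMSO level was 102 CPM in sgZBTB11 #2 and 143 in sgZBTB11 #1, and the DOX means were 391 and 347. The lower DMSO level of sgZBTB11 #2 thus enters this difference. At days 1, 3 and 5 this difference was -0.18, -0.07 and -0.06 (adjusted p = 0.22, 0.91 and 0.68), and 0.0614%, 0.018% and 2.58% of genes were called.

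With DOX the reads of CENPT were also assigned to shorter transcripts. RSEM gives both expected counts, which grow with transcript length, and TPM, which does not, so the ratio of the 2 follows the mean effective length of the transcripts to which a gene's reads were assigned. This weighted length was set to 100% at the DMSO mean of each guide and time. In sgNS it was 102, 98.6 and 99.1% with DMSO at 5 hr and 82.5, 82.5 and 85.3% with DOX. At day 1 in sgZBTB11 #1, where it was lowest, the DMSO libraries were at 99.1, 97.4 and 104% and the DOX libraries at 75.9, 76.6 and 77.3%. The groups were far apart at both times. In sgNS, sgZBTB11 #1 and sgZBTB11 #2 the change was -16.6%, -19.6% and -17.9% at 5 hr, then -17.8%, -23.4% and -17.6% on day 1, -8.17%, -13.7% and -12.2% by day 3, and finally -7.44%, -4.33% and -4.58% on day 5. DOX libraries lay below all DMSO libraries in 11 of 12 comparisons, with sgZBTB11 #2 at day 5 the exception. Among all genes with enough reads the share that did so was 21.4%, 27.7% and 5.36% at 5 hr, then 9.98%, 4.76% and 3.58% on day 1, 6.5%, 4.5% and 5.36% by day 3, and finally 8.37%, 12.3% and 13.1% on day 5. These values come from the contrast that chose the gene and are a description.

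THAP11 lies inside CENPT, and its weighted length was read beside that of CENPT. It moved by -2.65% to 0.50% over the 12 comparisons, with DOX below DMSO without overlap in sgNS and sgZBTB11 #1 at 5 hr and in sgZBTB11 #2 at day 5. At 5 hr FBXL19-AS1 moved by similar amounts (-3.03%, -2.56% and 0.72% in sgNS, sgZBTB11 #1 and sgZBTB11 #2). Whether THAP11 has transcripts of different length to shift between was not examined, so its steadiness is no control for CENPT. The weighted length of NUTF2 was called lower at 5 hr in sgNS (-7.30%, adjusted p = 0.016, limma) and sgZBTB11 #1 (-10.7%, adjusted p = 0.0049) but not in sgZBTB11 #2 (-3.32%, adjusted p = 0.85), where 15%, 14.8% and 0.0188% of genes were called, and from day 1 on its groups overlapped in all 3 guides. The shortening of CENPT did not differ between guides past the threshold: limma gave a net change of -2.63% at 5 hr, then -3.38%, -5.16% and 3.22% at days 1, 3 and 5, with adjusted p of 0.50, 1, 0.73 and 0.61. At 5 hr 0.225% of genes were called in that test, at days 1 and 3 0%, and at day 5 1.1%. On the TPM scale, which sets length aside but was used without TMM scaling, the DOX changes of CENPT were larger at 5 hr and day 1. They were 1.33, 1.68 and 2.19 and then 1.71, 2.15 and 1.87 (log2 of TPM + 1). In sgNS at 5 hr the change was 0.87 in edgeR and 1.33 on the TPM scale, while the log2 change of length was -0.26. The 2 scales thus differ by more than length, and the part due to length was not tested.

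**Figure D3:**
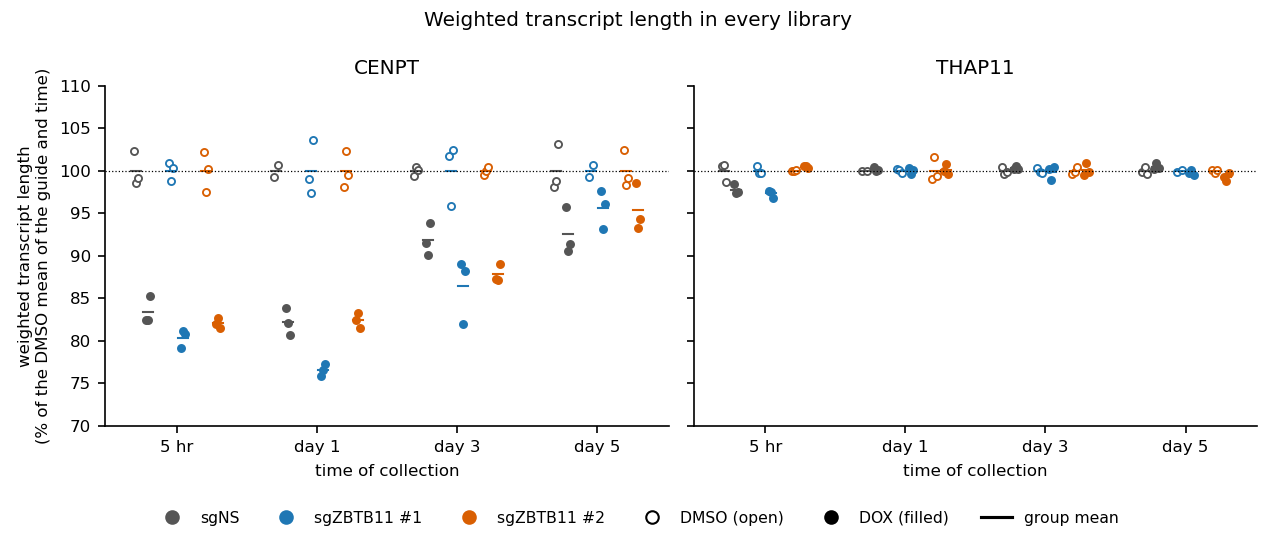
Weighted transcript length of CENPT and THAP11 in each library, as a percentage of the DMSO mean of the same guide and time (y axis, not starting at 0), by time of collection (x axis), open for DMSO and filled for DOX. CENPT falls to between 75.9 and 85.3% with DOX at 5 hr and day 1 and comes back toward 100% by day 5, and THAP11 stays near 100%.

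THAP11 went the other way from CENPT. With DMSO at 5 hr it stood at 18.8, 20.3 and 20.9 CPM in sgNS and with DOX at 11.2, 11.2 and 10.9. In sgZBTB11 #1 it went from 23, 22.1 and 21.9 to 9.73, 8.79 and 9.07, and in sgZBTB11 #2 from 21.7, 21.5 and 21.7 to 9.42, 8.29 and 9.95. All DOX libraries were below all DMSO libraries, and the ZBTB11 guides ended lower than sgNS. At day 1 the levels in sgNS were 27.9 and 28.8 with DMSO and 15.7, 14 and 15 with DOX. For sgZBTB11 #1 they were 31.7, 31.3 and 32.4 and then 14.9, 13.4 and 14.7, and for sgZBTB11 #2 27.6, 30.7 and 30.1 and then 17.5, 17.4 and 16.2. Again no library overlapped.

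By day 3 most of the THAP11 gap had closed. In sgNS, DMSO libraries at 24, 22.5 and 20.6 CPM overlapped DOX libraries at 20.9, 21.4 and 20.2. In sgZBTB11 #1 levels of 26.5, 27.1 and 24.6 stood against 23.6, 19.1 and 21.3, and in sgZBTB11 #2 levels of 25.6, 27.8 and 27.1 against 23.3, 22.1 and 21.9, with no overlap in either. Day 5 values in sgNS were 17.5, 17.7 and 17.2 with DMSO and 13.9, 14.2 and 18.6 with DOX, the last of these above all 3 DMSO libraries. Those of sgZBTB11 #1 were 19.4 and 16.9 against 16.1, 14.9 and 16.3, and those of sgZBTB11 #2 17.8, 18.1 and 17.7 against 16, 16.2 and 15.9. THAP11 was therefore lower without overlap in 10 of 12 comparisons, all except sgNS at days 3 and 5, so that the description of a move in all guides holds for it at 5 hr and day 1. The share of all genes lower without overlap was 23.6%, 20.9% and 16.2% at 5 hr (sgNS, sgZBTB11 #1, sgZBTB11 #2), then 16.1%, 12.9% and 12.4% on day 1, 8.19%, 7.73% and 9.44% by day 3, and finally 15.4%, 15.4% and 13.9% on day 5.

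The log2 changes of THAP11 were -0.85 (SE 0.074), -1.28 (0.075) and -1.23 (0.076) at 5 hr and -0.92 (0.075), -1.15 (0.066) and -0.79 (0.065) at day 1. They were -0.10, -0.29 and -0.26 at day 3 and -0.16, -0.20 and -0.16 at day 5. Relative to sgNS the fall at 5 hr was deeper in the ZBTB11 guides, with a net change of -0.40 (SE 0.093, adjusted p = 0.00073). At days 1, 3 and 5 the net change was -0.05, -0.17 and -0.02 (adjusted p = 0.97, 0.51 and 0.93). The guides of ZBTB11 did not differ from each other past the threshold at any time. The largest difference was 0.37 at day 1 (SE 0.094, adjusted p = 0.12), and it was called with the GC and length trend removed, an alternative chosen after seeing the data (0.42, adjusted p = 0.033).

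The rise of CENPT was far larger in reads than the fall of THAP11. At day 1 in sgNS CENPT gained 155 CPM on average while THAP11 lost 13.4. At 5 hr and day 1 CENPT gained from 11.6 to 23.3 CPM for each CPM that THAP11 lost. THAP11 made up 12.9% of the sum of both in sgNS with DMSO at 5 hr and 4.32% with DOX, and in sgZBTB11 #2 its share went from 17.5% to 2.30%. At day 1 the share was 23.1%, 25.4% and 22.3% with DMSO (sgNS, sgZBTB11 #1, sgZBTB11 #2) and 5.64%, 4.33% and 5.27% with DOX. At day 5 it was 11.2 to 11.6% with DMSO and 7.02 to 8.28% with DOX.

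UBXN8 had its DOX change at day 1. There it stood at 12.4 and 13.1 CPM with DMSO and at 22.5, 21.1 and 22.8 with DOX in sgNS. In sgZBTB11 #1 it went from 11.5, 11.3 and 10.7 to 21, 21 and 18.8, and in sgZBTB11 #2 from 11.5, 9.34 and 12.1 to 19.9, 21.1 and 21.9. All 3 guides reached about the same level, with log2 changes of 0.80 (SE 0.091), 0.86 (0.082) and 0.93 (0.082). At 5 hr the changes were 0.11, -0.10 and -0.14, and in every guide the libraries overlapped, between 7.89 and 11.5 CPM. At day 3 the groups were apart only in sgZBTB11 #1 (7.13, 6.17 and 8.19 against 9.80, 9.24 and 8.87), and at day 5 only in sgNS (5.83, 6.61 and 6.64 against 8.98, 7.65 and 8.93). The log2 changes in sgNS, sgZBTB11 #1 and sgZBTB11 #2 were 0.23, 0.37 and 0.035 on day 3 and 0.42, -0.03 and -0.18 on day 5. The rule that UBXN8 moved in all guides thus holds at day 1 alone, and the groups were apart in 5 of 12 comparisons. Of all genes, 14.5%, 11.8% and 10.7% were higher without overlap at day 1 (sgNS, sgZBTB11 #1, sgZBTB11 #2). The share was 6.61% in sgZBTB11 #1 at day 3 and 15.3% in sgNS at day 5. Between guides the test gave 1 call, in the net change at day 5, which was called for 19.2% of all genes. The net change of UBXN8 there was -0.53 (SE 0.15, adjusted p = 0.0063). It was -0.19 on the log2 scale of TPM + 1 (adjusted p = 0.35), so the call depends on the unit.

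FBXL19-AS1 rose in the same way at day 1 and held part of it at day 3. At day 1 it was at 30.7 and 32.7 CPM with DMSO and at 55.8, 54.2 and 62.7 with DOX in sgNS. In sgZBTB11 #1 it went from 31.5, 31.3 and 31.9 to 73.7, 69.6 and 71.9, and in sgZBTB11 #2 from 31.7, 32.2 and 29.2 to 69.7, 68.4 and 66. DMSO levels were alike in the 3 lines, and the DOX levels of the ZBTB11 guides lay above those of sgNS. The log2 changes were 0.86 (SE 0.062), 1.18 (0.052) and 1.13 (0.053), and the net change of 0.29 did not pass the threshold (SE 0.074, adjusted p = 0.17). At day 3 the sgNS libraries were at 19.9, 20.7 and 21.8 and then at 25.9, 24.3 and 24.1. In sgZBTB11 #1 they were at 27.6, 22.4 and 23.3 and then at 35.9, 35.9 and 35.2, and in sgZBTB11 #2 at 20.6, 20.3 and 19.8 and then at 30.3, 31.9 and 29.7. The changes were 0.25, 0.55 and 0.60, with a net change of 0.32 (SE 0.083, adjusted p = 0.066).

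At 5 hr the direction of FBXL19-AS1 was not shared. It was lower with DOX in sgNS (21.6, 22.3 and 20.8 against 20.4, 18.3 and 19.1) and in sgZBTB11 #1 (24, 26 and 23.8 against 21.4, 21.9 and 20.9), and higher in sgZBTB11 #2 (20.6, 19.99 and 20.8 against 23.3, 23.2 and 22.4). On the log2 scale these were -0.17, -0.20 and 0.17, but the value in sgNS turned to 0.074 on that of TPM + 1. The difference between the ZBTB11 guides was 0.36 (SE 0.087, adjusted p = 0.00086), and 0.17 on the TPM + 1 scale (adjusted p = 0.13). At day 5 the changes were 0.15, 0.20 and 0.23, with overlap in sgNS (17.3 to 22.8 against 20.1 to 24.1) and none in the ZBTB11 guides. Over the 12 comparisons the groups were apart in 11, 9 of them higher and 2 lower. Of all genes, 23.6% in sgNS and 20.9% in sgZBTB11 #1 were lower without overlap at 5 hr, and 16.2% in sgZBTB11 #2 were higher. Higher without overlap were 14.5%, 11.8% and 10.7% at day 1 (sgNS, sgZBTB11 #1, sgZBTB11 #2) and 8.79%, 6.61% and 7.79% at day 3. At day 5 these were 13.2% in sgZBTB11 #1 and 11% in sgZBTB11 #2. FBXL19, on whose strand opposite this RNA is read, changed by -0.10 to 0.11 over the 12 comparisons and was not called.

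**Figure D4:**
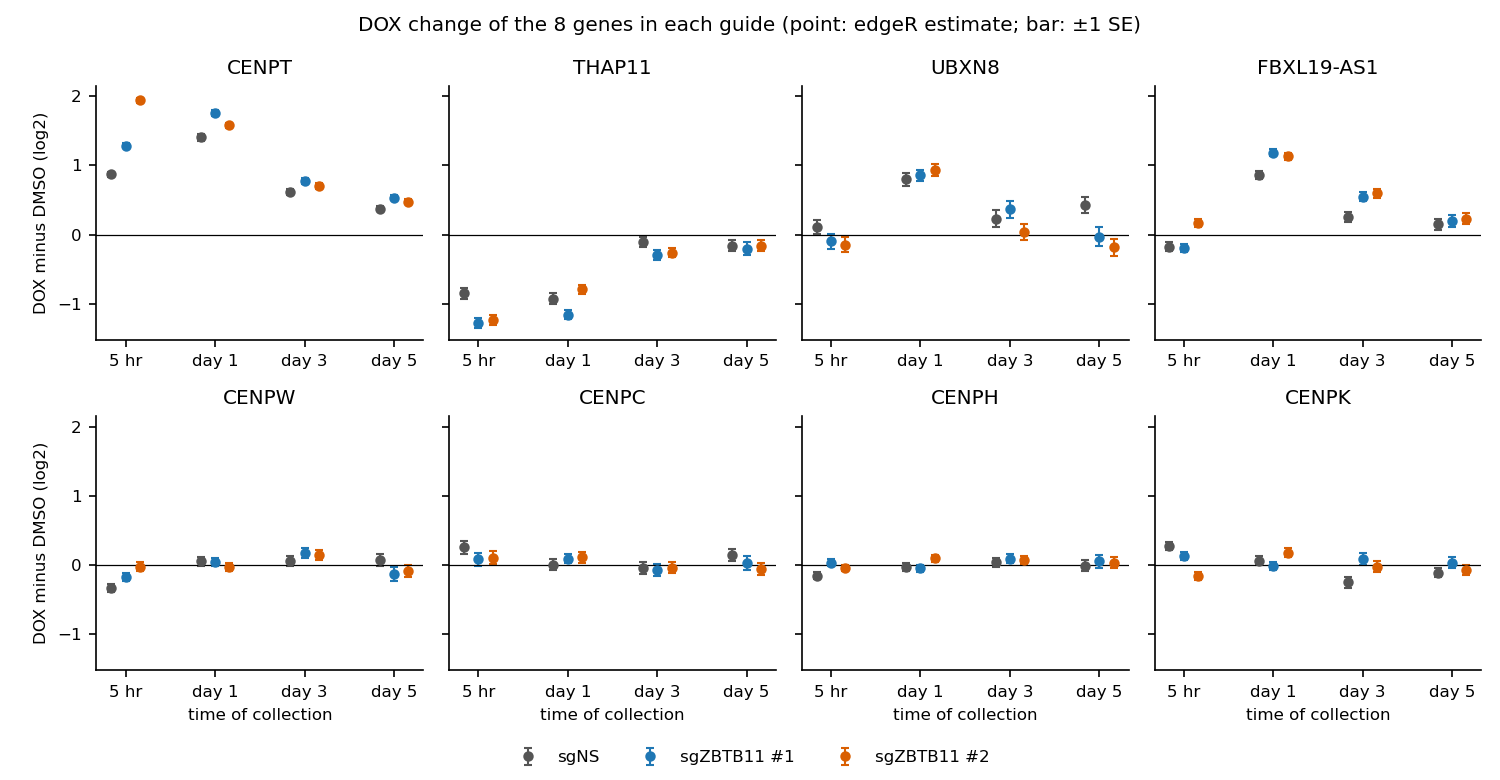
Log2 change with DOX (y axis, DOX minus DMSO, edgeR estimate with a bar of 1 SE) of the 8 genes by time of collection (x axis) and guide (colour). The upper row holds the genes chosen for this change, with CENPT above 0 throughout and THAP11 below it, and the 4 partners of CENPT in the lower row stay between -0.33 and 0.27.

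The partners of CENPT did not follow it. Over 4 genes, 3 guides and 4 times, 5 of 48 tests were called, all at 5 hr, 2 higher and 3 lower. At 5 hr 40.9%, 32.8% and 17% of all genes were called in sgNS, sgZBTB11 #1 and sgZBTB11 #2, against which 5 of 12 partner tests are to be read. At day 1, where 2.19%, 4.84% and 7.88% were called, 0 of 12 partner tests passed in edgeR (1 had an unadjusted p under 0.05). At day 3 (0.877%, 0.733% and 1.17% called) and day 5 (17.3%, 1.14% and 9% called) it was also 0 of 12, with 2 and 0 at an unadjusted p under 0.05. The changes of the 4 genes at days 1, 3 and 5 ran from -0.25 (CENPK in sgNS at day 3) to 0.18 (CENPK in sgZBTB11 #2 at day 1).

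CENPW, the histone-fold partner of CENPT, was lower with DOX at 5 hr in sgNS (35.3, 33.7 and 33.8 CPM against 27.9, 27.2 and 26.6) and in sgZBTB11 #1 (32.3, 35.5 and 34.1 against 32.1, 29 and 28.5). Its log2 changes there were -0.33 (SE 0.060, adjusted p = 1.7e-05) and -0.18 (SE 0.058, adjusted p = 0.015), and it was at -0.02 in sgZBTB11 #2. The net change was 0.23 (SE 0.073, adjusted p = 0.013). On the TPM + 1 scale these were -0.12 (adjusted p = 0.097), -0.07 (0.41) and a net of 0.05 (0.67), none called. CENPK, of the CENP-H and CENP-K complex, was higher in sgNS (33.9, 31.1 and 30.5 against 39.7, 36.1 and 39.6), by 0.27 (SE 0.056, adjusted p = 0.00013), and its net change was -0.28 (SE 0.069, adjusted p = 0.0013). With a trend in GC content and length removed, an alternative chosen after seeing the data, these became 0.02 (adjusted p = 0.77) and -0.03 (0.79).

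CENPH was lower in sgNS at 5 hr by 0.16 (SE 0.050, adjusted p = 0.0099), at 41, 38.9 and 40.6 CPM against 36, 36.9 and 35.1, but at 0.07 on the TPM + 1 scale (adjusted p = 0.23). CENPC, which binds CENP-A nucleosomes, was higher there by 0.26 (SE 0.095, adjusted p = 0.026) although its libraries overlapped (8.29, 8.98 and 10.6 against 12, 11 and 10.2), and the call was lost in DESeq2 (0.11) and with the GC and length trend removed (0.01, adjusted p = 0.98). None of the 5 calls of partners was thus kept in every setting. CENPK also differed between the ZBTB11 guides at 5 hr by -0.28 (SE 0.079, adjusted p = 0.0042), which was -0.0016 with that trend removed (0.99).

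CENPT was compared with a wider set of 34 centromere and kinetochore genes: 18 of the centromere and its CCAN, 4 that load CENP-A and 12 of the outer kinetochore. At day 1, 1 of 34 was called higher in each guide, which was CENPT each time, and 0, 1 and 2 were lower in sgNS, sgZBTB11 #1 and sgZBTB11 #2. CENPB, which binds a DNA motif of alpha satellite, was the lower one in sgZBTB11 #1 (-0.19) and sgZBTB11 #2 (-0.14), with HJURP, the chaperone of CENP-A, in the latter (-0.10). At day 3 CENPT was again the 1 called gene in each guide. At 5 hr 10 were higher and 8 lower in sgNS, 5 and 6 in sgZBTB11 #1, and 1 and 0 in sgZBTB11 #2, and at day 5 2 and 1, 1 and 0, and 1 and 4. Those lower in sgZBTB11 #2 at day 5 were ITGB3BP (-0.43), OIP5 (-0.44), CENPA (-0.30) and CENPS (-0.26). These counts are to be read against the shares of all genes called in sgNS, sgZBTB11 #1 and sgZBTB11 #2. The shares were 40.9%, 32.8% and 17% for 5 hr, with 2.19%, 4.84% and 7.88% for day 1. They were 0.877%, 0.733% and 1.17% for day 3, with 17.3%, 1.14% and 9% for day 5. CENPT was called higher in all 3 guides at all 4 times, but it was chosen for moving with DOX in every guide. Its own calls are therefore a description and no test. Of the other listed genes, none was called in 1 direction in all 3 guides at any of the 4 times.

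The median log2 changes of the 12 outer kinetochore genes at day 1 were 0.02, 0.01 and 0.01 in sgNS, sgZBTB11 #1 and sgZBTB11 #2, beside 0.00, 0.01 and -0.00 over all genes. For the 18 genes of the centromere and CCAN at day 1 the medians were -0.03, -0.02 and 0.01. For the 4 genes that load CENP-A they were 0.11, -0.11 and -0.06 at 5 hr, beside -0.00, 0.00 and 0.00 over all genes. Of the cofactor HCFC1 and of ZNF143 and MMACHC, a known target of THAP11, only HCFC1 was called with DOX, in 3 of 12 comparisons: -0.17 in sgNS (adjusted p = 0.011) and -0.12 in sgZBTB11 #2 (0.019) at day 1, and -0.12 in sgNS at day 5 (0.032). Over all genes 2.19%, 7.88% and 17.3% were called in these 3 comparisons. ZNF143 ran from -0.17 to 0.18 and MMACHC from -0.26 to 0.17 over the 12.

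Of the 6 nearest neighbours of CENPT and THAP11, 3 to each side, 2 of 18 tests were higher and 7 lower at 5 hr, 2 and 2 on day 1, and 1 and 0 on both later days. Over all genes 40.9%, 32.8% and 17% were called at 5 hr in sgNS, sgZBTB11 #1 and sgZBTB11 #2, then 2.19%, 4.84% and 7.88% on day 1, 0.877%, 0.733% and 1.17% by day 3, and finally 17.3%, 1.14% and 9% on day 5. The 5 hr calls held EDC4, an mRNA decapping factor, at -0.31, -0.18 and 0.28 in that order of guides, and RANBP10 at -0.34, -0.18 and 0.18. NUTF2, within which the farthest CENPT starts lie, was higher by 0.10 and 0.13 in sgZBTB11 #1 and sgZBTB11 #2 at day 1, by 0.17 in sgNS at day 3 and by 0.09 in sgNS at day 5, and lower by 0.08 in sgNS at 5 hr. EDC4 was lower also at day 1 in sgNS (-0.15) and sgZBTB11 #2 (-0.22). The largest change called was -0.60, of TSNAXIP1 in sgNS at 5 hr, and it was at -0.56 in sgZBTB11 #1. Among the 6 neighbours of UBXN8, 3 of 18 tests were higher and 2 lower at 5 hr, and 1 and 1 at day 5, while PPP2CB (0.12 in sgZBTB11 #2) was the 1 called at day 1. Among those of FBXL19-AS1, 1 was higher and 4 lower at 5 hr, all in BCL7C (-0.30 in sgNS and -0.12 in sgZBTB11 #1) and SETD1A (-0.25, -0.26 and 0.24 in the 3 guides). At day 5 BCL7C (0.15) and SETD1A (-0.11) were called in sgNS. Neither locus had other neighbour calls at day 1 or day 3.

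With DMSO alone, levels were compared between genes in TPM, which allows for length. At 5 hr CENPT had the highest median (72.2, range 56.6 to 82.7), followed by CENPW (60.2, range 55.4 to 63), and their ranges overlapped. Next came CENPH (30.9, range 25.8 to 33.1) and CENPK (26.3, range 22 to 29.1), which overlapped too. THAP11 (11.6, range 9.43 to 12.3), UBXN8 (7.24, range 6.10 to 8.60), FBXL19-AS1 (5.02, range 4.50 to 6.09) and CENPC (3.24, range 2.07 to 4) followed, each apart from its neighbours in every library. At day 1 CENPW (66.8, range 63.6 to 71.1) was above CENPT (55.5, range 48.3 to 65.1), with overlap, and by day 5 CENPT (79.9, range 76.8 to 83.9) was far above CENPW (26, range 22.5 to 28.1).

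Over time in culture, CENPT ran against its partners. Between days 1 and 3 it rose by 0.44 on the log2 scale with DMSO (SE 0.029, adjusted p = 1.1e-21), while CENPW fell by 0.71, CENPH by 0.71, CENPK by 0.47 and CENPC by 0.25. Between days 3 and 5 it rose by 0.24 (SE 0.027, adjusted p = 1.5e-11), while the same partners fell by 0.53, 0.77, 0.64 and 0.42. From 5 hr to day 1 it fell by 0.52 (SE 0.029, adjusted p = 1.1e-24), CENPC rose by 0.76 and CENPK by 0.53, and CENPH (0.03) and CENPW (-0.07) were not called. Of 24 such tests over the 8 genes 19 were called, 6 higher and 13 lower, beside 66.3%, 78.9% and 64.7% of all genes in the 3 steps. These steps compare times, with 1 set of libraries per time, so time and collection cannot be told apart. CENPT was the only one of the 34 centromere and kinetochore genes called higher from day 1 to day 3 (32 were lower), and with MIS12 1 of 2 from day 3 to day 5 (30 lower).

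**Figure D5:**
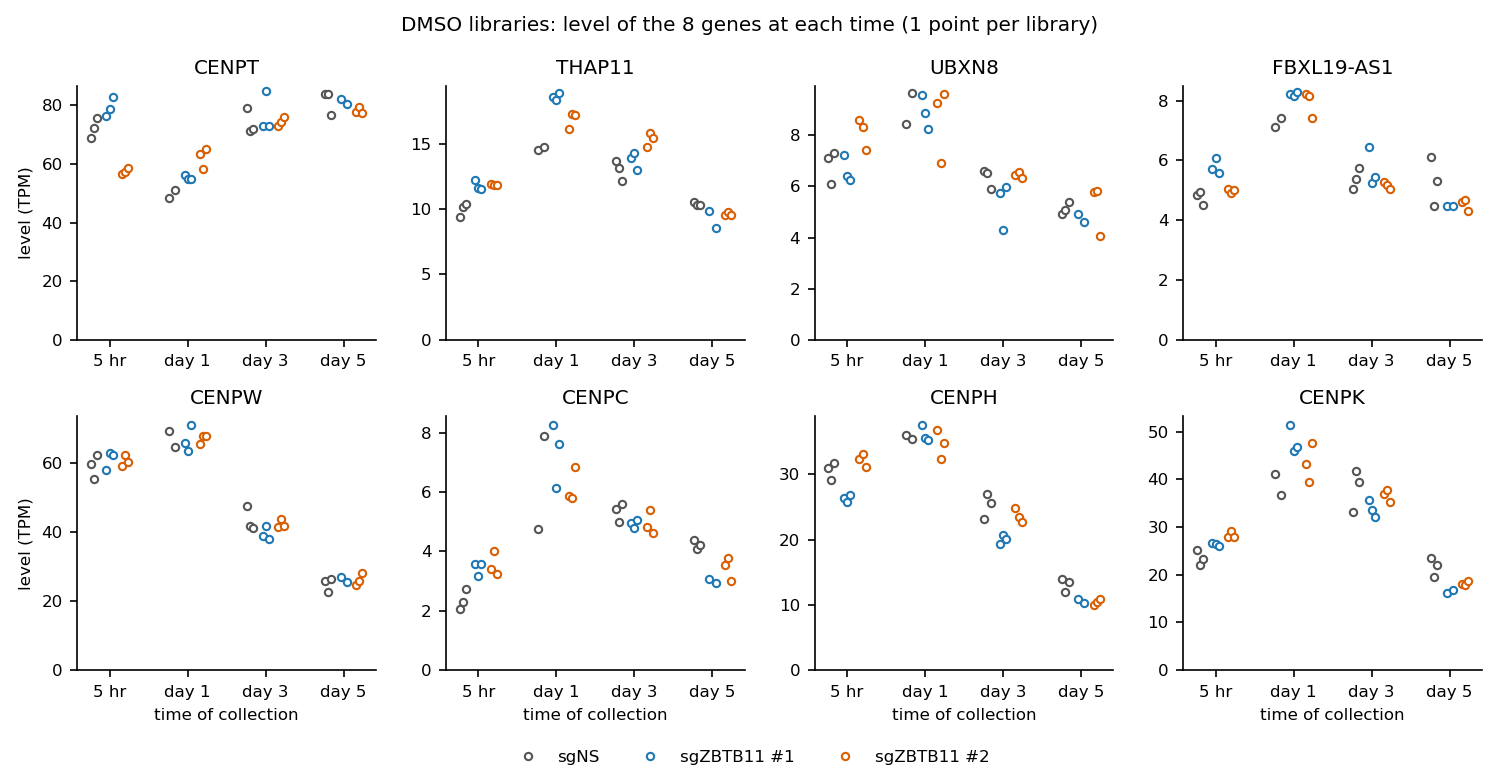
Level in TPM (y axis) of the 8 genes in each DMSO library by time of collection (x axis) and guide (colour). The median of CENPT is lowest at day 1 and highest at day 5, while those of CENPW, CENPH and CENPK are lowest at day 5.

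THAP11 rose by 0.34 from 5 hr to day 1 and fell by 0.30 and 0.28 in the next steps, opposite to CENPT each time. UBXN8 fell by 0.68 and FBXL19-AS1 by 0.58 from day 1 to day 3, after a rise of 0.36 in FBXL19-AS1 from 5 hr to day 1. The adjusted p values of these steps were at most 1.25e-08 (edgeR). In median TPM with DMSO, THAP11 (17.3), UBXN8 (9.07) and FBXL19-AS1 (8.15) were all highest at day 1.

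The 3 lines also differed with DMSO alone, in libraries collected at the same 4 times as those with DOX. Of 64 tests of a ZBTB11 line against sgNS over 8 genes and 4 times, 13 were called, 8 higher and 5 lower: 4 of 16 at 5 hr, then 1, 6 and 2 at days 1, 3 and 5. Over all genes 32% and 32.2% were called at 5 hr in sgZBTB11 #1 and sgZBTB11 #2, then 21.2% and 10.7% on day 1, 19.7% and 3.32% by day 3, and finally 21.8% and 18% on day 5. The largest was CENPT in sgZBTB11 #2 at 5 hr, at -0.40 (SE 0.040, adjusted p = 5.2e-10), the group of 102, 98.5 and 104 CPM. The DOX change of CENPT was also largest in that guide at that time. CENPT was above sgNS in sgZBTB11 #1 at day 3 (0.23, adjusted p = 0.00085) and day 5 (0.12, adjusted p = 0.017), with values of 0.05 and -0.0012 on the TPM + 1 scale, neither called. THAP11 was above sgNS at day 3 in both lines (0.22 and 0.26, adjusted p = 0.029 and 0.022). CENPH was below it in sgZBTB11 #1 at 5 hr (-0.29, adjusted p = 1.9e-05). The count of 13 was 5 in DESeq2, 18 on the TPM + 1 scale and 8 without sgNS DMSO replicate 2 of day 3, so it depends on the test.

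Genes whose 12 DOX changes most resembled those of CENPT were named by Pearson correlation over the 3 guides and 4 times, among 11201 genes. They were PTK7 (0.907), TEAD2 (0.90), CCDC32 (0.868), AGPAT4 (0.854) and ARHGEF4 (0.834). Their log2 changes were mostly small beside those of CENPT: from -0.05 to 0.13 in PTK7, -0.06 to 0.09 in TEAD2, -0.12 to 0.22 in CCDC32, 0.05 to 0.59 in AGPAT4, an acyltransferase of phosphatidic acid synthesis, and -0.37 to 0.25 in ARHGEF4. For THAP11 they were ELP2 (0.817), S100A1 (0.806), ENC1 (0.801), TLR8-AS1 (0.799) and SLC25A38 (0.789), for UBXN8 GSTA4 (0.927), GBP2 (0.917) and FASTKD1 (0.906), and for FBXL19-AS1 ENSG00000293429 (0.909), HTRA2 (0.889) and RUFY3 (0.881). CENPT and THAP11 had a correlation of -0.892. These 12 points share their libraries and, within a guide and time, the same DMSO group, and the values are a description.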

How the data were processed

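RNA-seq libraries (poly(A) selection) of MIA PaCa-2 cells were quantified per gene with RSEM on GRCh38.p14, per the submitters' processing notes, and the version is not given in the sources used here. The authors deposited expected counts, of which 5.13% were not whole and were rounded to whole numbers, and TPM, which scales transcripts for length and depth. Each of the 4 times was fitted alone with edgeR 4.0.16 in R 4.3.3 (TMM scaling, filterByExpr by group, robust quasi-likelihood test, Benjamini-Hochberg adjustment over all genes tested, threshold 0.05), with 1 mean per group. DMSO time steps came from 1 fit of all 70 libraries. The 8 genes, the gene lists and the motifs were chosen with earlier results of these data known. So the DOX change of the first 4 genes is described and not tested. Weighted transcript length, added after seeing the data, is the log2 ratio of expected count to TPM, centred on the library median and fitted with limma 3.58.1, for genes with at least 50 counts in every library of the time and a TPM of at least 1. Named genes are the 8 genes, their neighbours, members of the fixed lists, ZBTB11 and the nearest by correlation. The lists are the centromere and CCAN (18 genes), CENP-A loading (4), the outer kinetochore (12), and HCFC1, ZNF143 and MMACHC. Sequences and positions are RefSeq's on GRCh38.p14. Alternatives were DESeq2 1.42.0, RLE scaling, no filter on low counts, limma on log2 of TPM plus 1 or 0.1, a replicate block, 1 fit of all libraries, leaving out each library and, chosen after seeing the data, removal of a GC and length trend. The tests were checked on simulated data. No 2 libraries of the same group held identical values.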

Additional observations from a re-analysis of the deposited data

Results flagged for a closer look

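Of the results, 10 stood out because the DOX change differed between guides by a test of that difference. All come from the edgeR quasi-likelihood test with Benjamini-Hochberg adjustment. CENPT rose more in the ZBTB11 guides than in sgNS, by 0.74 at 5 hr, 0.26 at day 1 and 0.13 at day 5 on the log2 scale. At 5 hr it also rose more in sgZBTB11 #2 than in sgZBTB11 #1, by 0.66. Its mean level went from 102 to 391 CPM in sgZBTB11 #2 and from 143 to 347 in sgZBTB11 #1. The lower DMSO level of sgZBTB11 #2 thus enters this difference. THAP11 fell further in the ZBTB11 guides than in sgNS at 5 hr, with a net change of -0.40. CENPW had a net change of 0.23 at 5 hr, and CENPK of -0.28. CENPK also differed between the ZBTB11 guides at 5 hr, by -0.28. FBXL19-AS1 differed between them at 5 hr by 0.36. UBXN8 had a net change of -0.53 at day 5, when it was higher with DOX in sgNS and overlapped in both ZBTB11 guides. Of these results 7 are from 5 hr, when 30% of all genes had a called net change and 35.1% a called difference between the ZBTB11 guides. The net change was called for 0.0737% of all genes at day 1 and for 19.2% at day 5. As given above, the CENPT calls of days 1 and 5 were lost without single libraries. On the TPM + 1 scale the calls of UBXN8, CENPW and FBXL19-AS1 were lost, and with the GC and length trend removed those of CENPK. The causes of these differences were not tested.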

How the results depend on the processing

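The net change of CENPT kept its direction in every alternative run. In limma on log2 of TPM plus 1 and plus 0.1 it was 0.28 and 0.28 at day 3 and 0.32 and 0.32 at day 5. At 5 hr it ran from 0.70 to 0.77 with each library left out in turn, at day 1 from 0.20 to 0.33, at day 3 from 0.07 to 0.15 and at day 5 from 0.10 to 0.16. It missed the threshold at day 1 in limma on log2 of TPM plus 1 (0.31, adjusted p = 0.21) and plus 0.1 (0.30, adjusted p = 0.20) and, in 1 fit of all 70 libraries, at day 1 (0.26, adjusted p = 0.060) and day 5 (0.12, adjusted p = 0.13). The count of calls between DMSO lines, 13, ran from 5 (DESeq2) to 19 (limma on log2 of TPM plus 0.1), and from 8 to 15 with a library left out. Counts for partners (5), for guide differences (10) and for DMSO time steps (19) stayed within 4 to 7, 9 to 12 and 19 to 24.

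Among values called in at least 1 of the settings compared, or whose libraries lay apart, signs turned on the TPM scale (plus 1, then plus 0.1) for CENPH with DOX in sgNS at 5 hr (0.066 and 0.068), FBXL19-AS1 with DOX in sgNS at 5 hr (0.074 and 0.087), CENPW from 5 hr to day 1 with DMSO (0.15 and 0.15), UBXN8 (-0.22 and -0.25) and FBXL19-AS1 (-0.16 and -0.19) from day 3 to day 5 with DMSO, and CENPT in sgZBTB11 #1 against sgNS with DMSO at day 5 (-0.0012 and -0.0012). They also turned for CENPT in the same comparison at day 1 with TPM plus 0.1 (0.15), and for CENPK in sgZBTB11 #2 against sgNS with DMSO at 5 hr with the GC and length trend removed (-0.13). Smaller values that passed through 0 over the settings include the net change of THAP11 at day 5 (-0.04 to 0.25) and the DOX changes of UBXN8 in sgZBTB11 #1 at 5 hr (-0.12 to 0.01) and FBXL19-AS1 in sgNS at day 5 (-0.04 to 0.16). The causes were not tested.

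No pairing by replicate number was detected: deviations of same-numbered libraries had median correlations of 0.02, 0.00095, 0.0035 and -0.0092 at the 4 times. Single pairs ran from -0.21 (day 3) to 0.25 (day 1). With 2 or 3 libraries per group this cannot exclude a culture or batch shared by number. With the replicate block the net change of CENPT was 0.74, 0.28, 0.12 and 0.14, and the partner calls were 7. DMSO time steps were refitted without replicates 1 and 2 only, not 3. Counts of UBXN8 and CENPC, as low as 75 and 130 in a library, limit the precision of their small changes.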
